A study of Mus musculus with 24 samples.

Results

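The proteins that carry a signal from the T cell receptor into the cell were followed through 48 genes, a list of named components of the pathway. All 48 were among the 9420 genes of the deposited expression table. By role they fall into 6 receptor and coreceptor genes, 5 genes of proximal kinases and of the phosphatase CD45, 12 adaptors and effectors, 3 genes of the NF-kB branch, 9 of the calcium branch and 13 negative regulators. The cells were CD4+ T cells from mice of strain DO11.10, which carries a T cell receptor transgene; they were isolated with magnetic beads and are labelled Th1 effector cells. Every library came from such cells, and the groups differ in time after restimulation and in what was sequenced. Restimulation used a plate-bound goat antibody against hamster immunoglobulin together with soluble antibodies against CD3 and CD28, so that the receptor complex and the costimulator encoded by listed genes were themselves the targets of the stimulus. Newly transcribed RNA, labelled with 200 µM 4-thiouridine (4sU) for 1 h, was sequenced at 0, 1 and 4 h in duplicate and at 2 and 3 h in a single library, 8 in all. Total RNA gave 6 libraries, with 0 and 4 h in duplicate and 1 h (replicate 2) and 2 h (replicate 1) single. Ribosome-protected footprints (ribosome profiling, RP) gave 8, with duplicates for 0, 1 and 4 h and single libraries for 0.5 and 2 h. A further pair of 4sU libraries, labelled with 500 µM for 0.5 h, covered 0 and 0.5 h. The labels do not say whether replicates were separate animals or cultures, so a p-value here reflects no more than how far the libraries spread, which may be technical.

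When the receptor binds antigen, Lck and Fyn phosphorylate the CD3 and zeta chains, Zap70 docks there and phosphorylates the adaptors LAT and SLP-76 (Lcp2), and phospholipase C gamma 1 (Plcg1) is brought to the membrane. It makes inositol trisphosphate, which empties calcium stores sensed by Stim proteins so that Orai channels open and calcineurin activates NFAT factors, and diacylglycerol, which activates Rasgrp1 and protein kinase C theta (Prkcq) and through it Bcl10 and Malt1 of the NF-kB branch. Phosphatases, ubiquitin ligases, inhibitory adaptors and diacylglycerol kinases hold the signal back, and in effector T cells they set how strongly a repeated encounter is read.

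Values are FPKM, which scale fragments by gene length and by library, so a change is relative to the rest of that library. Steps between the lowest values gave the depth of 9 of the 24 libraries, 8.89 to 26.2 M reads in 7 of the RP libraries, 4.87 M reads in total RNA 0 h replicate 2 and 12.7 M reads in the 0.5 h library of the short label, and the depth of the other libraries is unknown. Th1 and CD4 T cell markers were present (7 of 7 listed), among them the cytokine gene Ifng. In 4sU RNA of replicates 1 and 2 Ifng was at 101 and 45.4 FPKM at 0 h, 5211 and 737 at 1 h and 7580 and 2368 at 4 h. The level it reached after restimulation therefore differed between replicate numbers. Markers of other cells differed between replicate numbers too. The summed FPKM of 6 CD8 T and NK cell markers (of 7 listed) was 294 to 381 FPKM in total RNA of replicate 1 and 55.01 to 62.2 FPKM in replicate 2. Gzma made up most of this gap (215 against 4.42 FPKM at 0 h). Cd8b1 (57.9 against 10.8 FPKM), Cd8a (23.5 against 3.78) and Klrd1 (22.7 against 9.4) were also higher in replicate 1 at 0 h. Klrk1 (15.96 against 25.8 FPKM) and Eomes (0.66 against 0.79) were lower in replicate 1 there. The sum of 4 B cell markers (of 5 listed) in 4sU RNA went from 17.3 at 0 h to 1.84 at 4 h in replicate 1 and from 4.19 to 2.04 in replicate 2. The sum of 4 antigen presentation genes (of 5 listed) went from 75.6 to 28.9 in total RNA of replicate 1 and from 24.2 to 21.1 in replicate 2. The defining genes Ncr1, Pax5, Lyz2, Csf1r, Adgre1 and Itgax were not in the table, and the total RNA library of replicate 2 at 1 h listed Cd79b and H2-Aa at 0. The part of other cells in the results was not tested, and in bulk libraries fewer cells of a type and less RNA per cell cannot be told apart.

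The promoters of 5 genes are printed because the results between 0 and 4 h in newly transcribed RNA turn on them. Of the neighbours Cd3g, Cd3d and Cd3e on chromosome 9, Cd3g and Cd3d fell and Cd3e was not called between these times. Stim1 fell and Lcp2 rose. The 5 promoters were chosen after these values were seen. Each is the 250 bases before the annotated start, 5′ to 3′ on the gene's strand, from RefSeq on GRCm38.p6. Capitals mark the core letters bound by NFAT factors (GGAAA) and the GC box (GGGCGG), each on either strand.
Cd3g, chr9:44980432-44980681, minus strand: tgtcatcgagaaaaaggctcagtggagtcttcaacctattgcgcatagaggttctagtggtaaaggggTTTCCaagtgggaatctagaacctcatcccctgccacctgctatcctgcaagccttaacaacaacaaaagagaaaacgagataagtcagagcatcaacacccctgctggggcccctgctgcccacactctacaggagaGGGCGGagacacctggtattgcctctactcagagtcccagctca
Cd3d, chr9:44981536-44981785, plus strand: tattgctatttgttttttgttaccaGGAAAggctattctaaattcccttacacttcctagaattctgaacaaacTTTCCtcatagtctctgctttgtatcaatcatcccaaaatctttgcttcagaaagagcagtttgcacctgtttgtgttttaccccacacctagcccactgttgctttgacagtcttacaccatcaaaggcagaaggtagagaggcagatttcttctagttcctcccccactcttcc
Cd3e, chr9:45009612-45009861, minus strand: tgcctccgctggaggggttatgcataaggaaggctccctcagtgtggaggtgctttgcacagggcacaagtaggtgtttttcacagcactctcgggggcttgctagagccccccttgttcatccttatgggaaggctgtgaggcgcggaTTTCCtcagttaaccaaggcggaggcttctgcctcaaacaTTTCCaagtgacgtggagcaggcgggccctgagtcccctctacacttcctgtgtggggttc
Stim1, chr7:102267569-102267818, plus strand: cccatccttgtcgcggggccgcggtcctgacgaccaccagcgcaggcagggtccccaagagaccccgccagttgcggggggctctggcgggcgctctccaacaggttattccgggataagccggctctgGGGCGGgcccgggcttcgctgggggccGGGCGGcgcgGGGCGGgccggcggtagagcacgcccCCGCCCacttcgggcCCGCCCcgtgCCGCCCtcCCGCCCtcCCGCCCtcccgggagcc
Lcp2, chr11:34046678-34046927, plus strand: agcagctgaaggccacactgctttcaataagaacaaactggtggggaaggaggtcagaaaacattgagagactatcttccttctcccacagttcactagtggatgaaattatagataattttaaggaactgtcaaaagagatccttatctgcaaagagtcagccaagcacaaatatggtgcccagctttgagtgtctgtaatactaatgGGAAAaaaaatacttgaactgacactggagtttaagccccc
The annotated starts of Cd3g and Cd3d are 1355 bases apart and point away from each other, and that of Cd3e is 27825 bases from that of Cd3d. Matches to the NFAT core numbered 1 in Cd3g, 2 in Cd3d, 2 in Cd3e and 1 in Lcp2, and Stim1 had 0. The Stim1 window held 8 GC boxes and that of Cd3g held 1. RefSeq windows existed for 40 of the 48 genes, 57 windows in all. The NFAT core occurred in 39 of these 57 and in 55.6% of all 32851 promoter windows of this length, and the GC box in 27 of 57 and in 32.7%. The AP-1 motif TGANTCA and the ETS motif CCGGAAG, which shares the letters GGAA with the NFAT core, occurred in 0 of 57 and in 6.75% and 6.91% of all windows, and the TATA box TATAAA in 4 of 57 and in 12.4%. A match describes letters and not binding.

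At 4 h after restimulation, newly transcribed RNA of 11 of the 48 genes had fallen and that of 1, Lcp2, had risen. The fallen genes included the costimulatory receptor Cd28, the CD3 chains Cd3d and Cd3g, the calcium sensor Stim1, the factor Nfatc3 and the diacylglycerol kinase Dgka. A gene counts as called, and is said to rise or fall, at an adjusted p below 0.05 in limma on log2(FPKM + 1). The 12 calls compare with 33.3% of all 9278 genes tested, 14.4% called higher and 18.9% lower. The median change of the 48 genes was -0.37 and that of all genes -0.16. An unadjusted p below 0.05 in limma was reached by 19 members, beside 4348 of the 9278 genes. With the replicate number as a block, which compares libraries that share a number, there were 23 calls, 4 higher (23.3% of genes) and 19 lower (35.4%), against 58.7% in either direction. The block added Dok2, Orai1 and Zap70 on the higher side and Grap2, Lck, Nck1, Ppp3cb, Ptprc, Sit1, Stim2 and Txk on the lower side, with limma adjusted p from 0.000746 (Txk) to 0.0323 (Lck). Median-of-ratios scaling, which moved the median of all genes from -0.16 to -0.01, left 9 members called, 8 of them lower, and turned the split over all genes from 1334 higher and 1755 lower to 1645 higher and 1374 lower. At a pseudocount of 0.1 the call of Lcp2 was lost (limma adjusted p = 0.0501) and the 11 lower ones were kept. Without 4sU 0 h replicate 1 or without 4sU 0 h replicate 2 only Stim1 and Nfatc3 were called, without 4 h replicate 1 the count was 8 and without 4 h replicate 2 it was 14. Calls over all genes in these fits were 1366, 1100, 1629 and 3001, against 3089 with every library. Stim1 and Nfatc3 kept their calls in all 4 of these fits, with adjusted p up to 0.02299 and 0.0353, and for the other 10 the highest adjusted p lay between 0.0587 (Cd28) and 0.245 (Lcp2).

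In the RNA pool and on ribosomes fewer members were called, and 3 were called in all 3 kinds of library: Lcp2, higher, and Nfatc3 and Dgka, lower. In total RNA at 4 h these were the only 3 calls, against 13.5% of 9078 genes (6.47% higher and 7.02% lower). Median-of-ratios scaling kept the 3 calls and turned the split over all genes from 587 higher and 637 lower to 783 and 549. The block gave 19 calls there, 4 higher (16.6% of genes) and 15 lower (23.3%), against 39.9%. It added Bcl10, Orai1 and Rasgrp1, higher, and Cd28, Dgkz, Fyn, Lck, Nck2, Nfatc1, Nfatc2, Plcg1, Ppp3cb, Sit1, Stim1, Stim2 and Txk, lower, with limma adjusted p from 4.61e-05 (Txk) to 0.04701 (Nfatc1). In RP 9 members were called, Lcp2 higher and Nfatc3, Stim1, Cd28, Dgka, Plcg1, Fyn, Dgkz and Ptpn22 lower, against 25.0% of 9312 genes (12.1% higher and 12.9% lower). The block gave 21 calls there, 6 higher (21.3% of genes) and 15 lower (26.7%), against 48% of genes. It added Bcl10, Cblb, Lat, Malt1 and Orai1, higher, and Cd3g, Lck, Nck1, Sit1, Stim2, Txk and Ubash3b, lower, with limma adjusted p from 0.00517 (Sit1) to 0.0458 (Bcl10). The medians were -0.26 in total RNA and -0.12 in RP, beside -0.10 and -0.10 over all genes. Differences had the same negative sign in all 3 kinds for 25 members and the same positive sign for 11, beside 45.2% and 31.0% of 8978 genes, and 12 were mixed. Median-of-ratios scaling turned the sign of 6 members in 4sU RNA (Cd247, Malt1, Sos1, Themis, Ubash3a and Was), of 5 in total RNA (Cd247, Dok1, Ptprc, Sos1 and Ubash3a) and of 1 in RP (Cbl), none of them called. In 4sU RNA both 4 h libraries lay above both 0 h libraries for 7 members (28.7% of genes) and below them for 23 (42.3%), in total RNA for 6 (25.3%) and 20 (36.7%), and in RP for 12 (29.0%) and 19 (36.8%). The 14 members called in at least 1 kind compare with 39.6% of genes, and the 3 called in every kind with 11.2%. With the block 11 were called in every kind (30.9% of genes), Lcp2 and Orai1 higher and Cd28, Dgka, Lck, Nfatc3, Plcg1, Sit1, Stim1, Stim2 and Txk lower, and 32 in at least 1 kind (69.4%). Without total RNA 4 h replicate 1 no member was called in total RNA (85 genes), without 0 h replicate 1 or without 0 h replicate 2 only Lcp2 was (558 and 736 genes), and without 4 h replicate 2 Lcp2 and Dgka were (389 genes, against 1224 with every library). The fits gave a highest limma adjusted p of 0.0867 for Lcp2, 0.114 for Nfatc3 and 0.1703 for Dgka. In RP the count was 0 without 4 h replicate 1, 1 without 0 h replicate 1, 2 without 0 h replicate 2 and 3 without 4 h replicate 2, where 504, 835, 1196 and 1268 genes were called against 2326. The highest adjusted p of the 9 genes lay between 0.0593 (Lcp2) and 0.192 (Dgka).

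**Figure D1:**
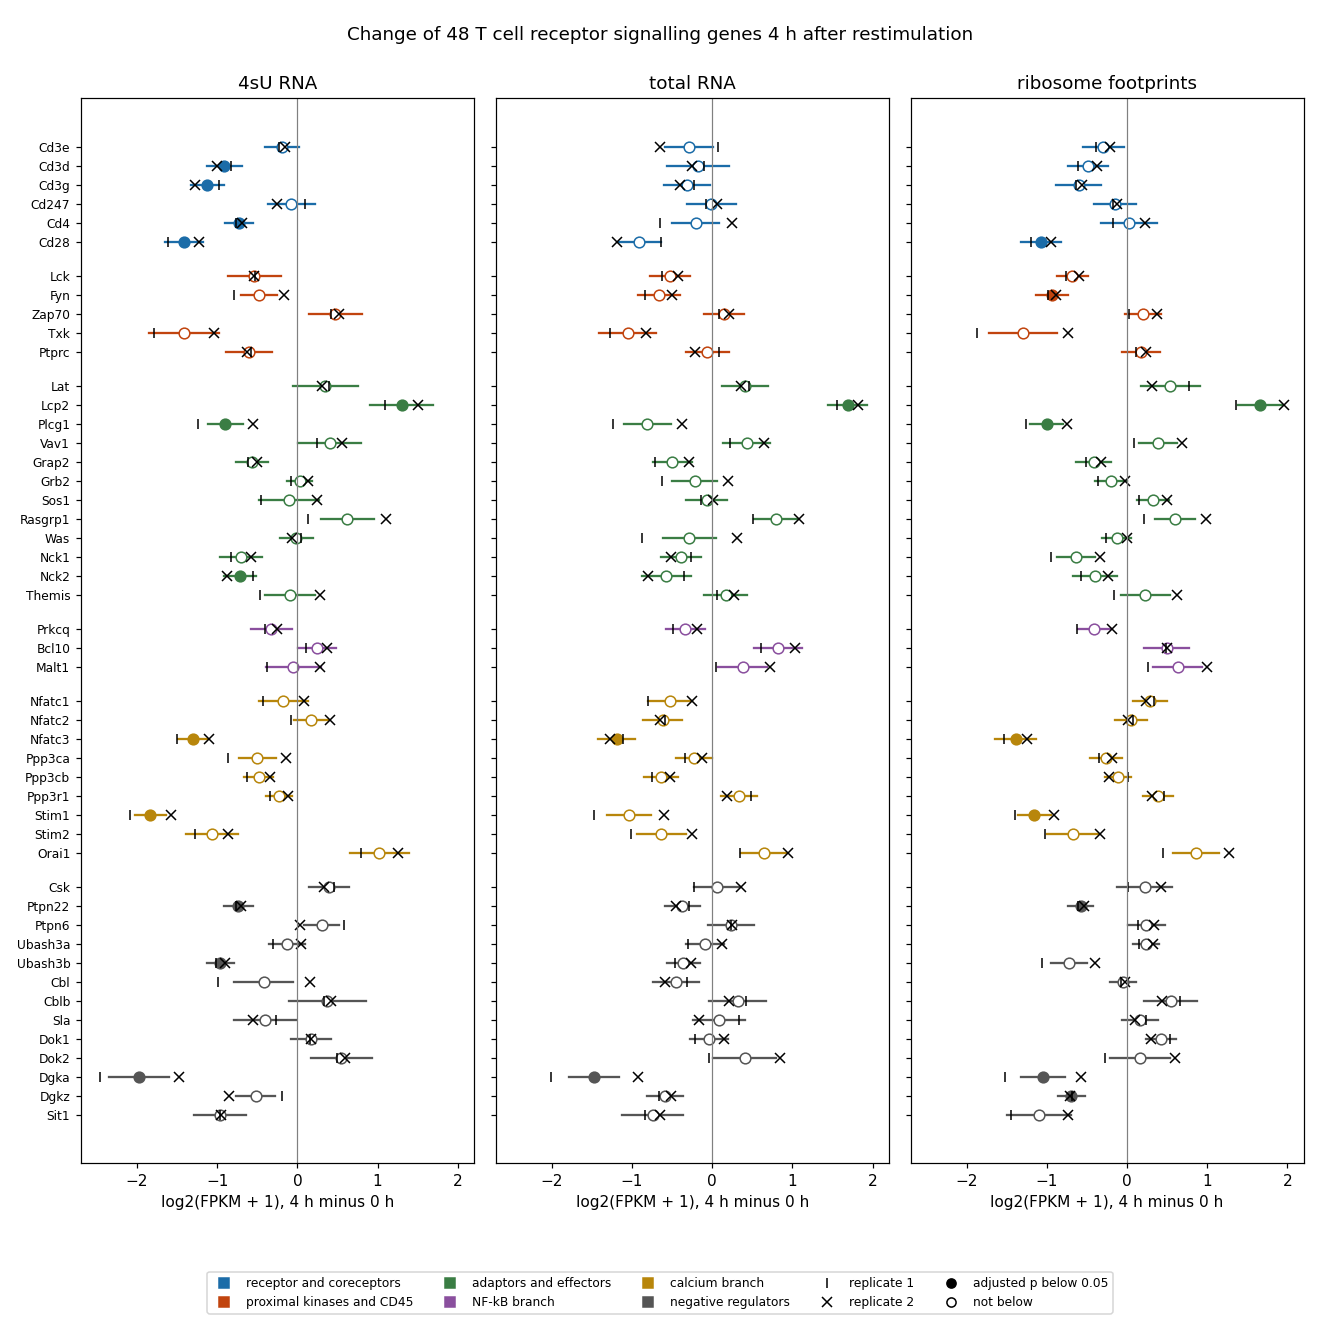
Difference between 4 h and 0 h in log2(FPKM + 1) for each of the 48 genes, grouped by role, in 4sU RNA, total RNA and ribosome footprints. Circles with bars are the limma estimate ± SE (filled where the adjusted p is below 0.05) and ticks and crosses are the differences within replicates 1 and 2; filled circles number 12, 3 and 9, and Lcp2 is the one filled circle to the right of 0 in each panel.

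Among the receptor and coreceptor genes, new RNA of 4 of 6 fell by 4 h, beside 18.9% of all genes, and Cd3e and Cd247 did not pass. Cd28, which gives the second signal of T cell activation, stood in 4sU RNA at 319 and 294 FPKM at 0 h, 223 and 228 at 1 h and 103 and 126 at 4 h in replicates 1 and 2, with 159.7 at 2 h and 153 at 3 h in replicate 1. Both 4 h libraries lay below all 4 earlier replicated libraries, and the fall was -1.42 ± 0.24 SE (limma, adjusted p = 0.008195). Its footprints went from 1366 and 1034 FPKM to 595 and 533 at 4 h (-1.08 ± 0.25 SE, limma adjusted p = 0.0295), and total RNA from 147 and 155 FPKM to 94.3 and 67.5 at 4 h (-0.91 ± 0.27 SE, adjusted p = 0.0663, 0.000201 with the block). The groups did not overlap in either kind.

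Of the CD3 chains, Cd3g and Cd3d fell in new RNA between 0 and 4 h, and Cd3e was not called between these times. Spans are those of the GENCODE annotation on GRCm38. Cd3g (chr9:44969572-44980431) stood at 171 and 169 FPKM at 0 h, 98.6 and 94.4 at 1 h and 86.1 and 69.2 at 4 h, with 106 and 81.9 at 2 and 3 h (-1.13 ± 0.20 SE, limma adjusted p = 0.0104). Its neighbour Cd3d (chr9:44981786-44987339) stood at 192 and 179 FPKM at 0 h, 133 and 149.7 at 1 h and 108 and 89.1 at 4 h, with 137 and 109 at 2 and 3 h (-0.91 ± 0.22 SE, adjusted p = 0.0238, 0.0566 with median-of-ratios scaling). For both genes the 1 h libraries already lay below the 0 h libraries. Cd3e (chr9:44998740-45009627), the third gene of the cluster, stood at 38.6 and 45.3 FPKM at 0 h and 32.8 and 40.5 at 4 h. The groups at these times overlapped (-0.19 ± 0.21 SE, limma adjusted p = 0.5002). At 1 h Cd3e stood at 42.3 and 54.1 FPKM, with 39.6 and 32.8 at 2 and 3 h in replicate 1. Between 1 and 4 h it was called lower with the block only. In total RNA the differences were -0.32 ± 0.28 SE for Cd3g, -0.18 ± 0.39 SE for Cd3d and -0.29 ± 0.30 SE for Cd3e, and none passed (limma, adjusted p = 0.476, 0.793 and 0.542). Whether the chains differ from each other in their change was not tested. Cd4, the coreceptor that carries Lck, fell in 4sU RNA from 77.9 and 82.9 FPKM to 45.2 and 51.1 at 4 h (-0.73 ± 0.17 SE, limma adjusted p = 0.0227), with 95.2 FPKM at 2 h above both 0 h libraries. Footprints of Cd4 were at 772 and 461 FPKM at 0 h and 684 and 538 at 4 h, lower in replicate 1 and higher in replicate 2. The zeta chain Cd247 stood at 75.9 and 62.4 FPKM at 0 h and 81.05 and 52.3 at 4 h in 4sU RNA (-0.08 ± 0.29 SE).

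**Figure D2:**
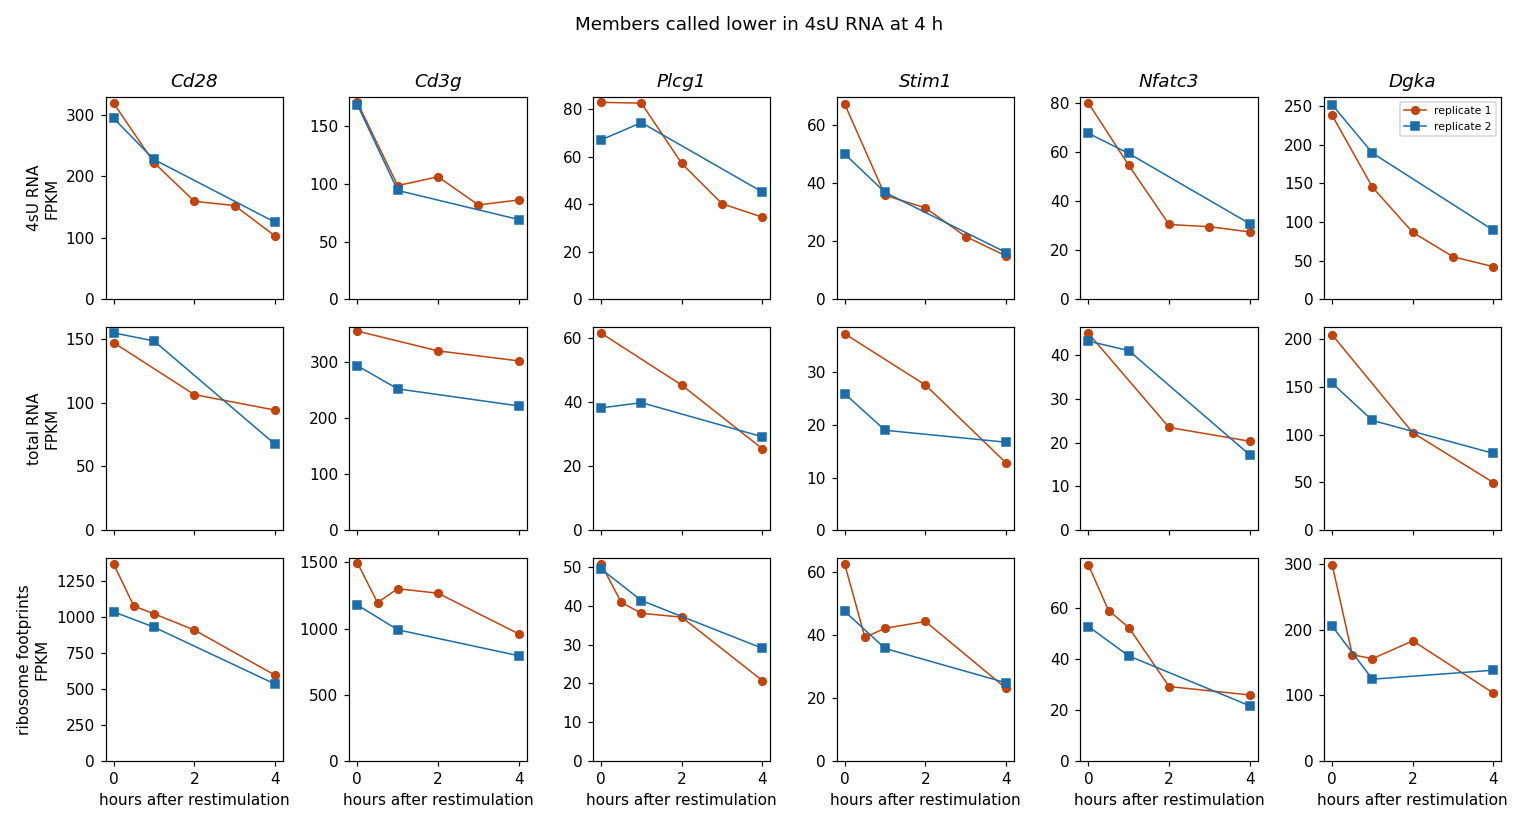
FPKM by hours after restimulation for Cd28, Cd3g, Plcg1, Stim1, Nfatc3 and Dgka (columns) in 4sU RNA, total RNA and ribosome footprints (lines of panels), 1 point per library, with replicates 1 and 2 joined separately. All 6 genes fell in 4sU RNA by 4 h, where both 4 h points lie below both 0 h points.

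Of the proximal kinases none was called in 4sU RNA at 4 h, and Fyn was called lower in RP. Txk, a Tec family kinase, had the largest difference of this group and stood in 4sU RNA at 13.0 and 18.8 FPKM at 0 h, 10.8 and 16.1 at 1 h, 8.20 and 5.12 at 2 and 3 h, and 3.06 and 8.61 at 4 h. The 4 h libraries were below the 0 h libraries in both replicates (-1.41 ± 0.44 SE, limma adjusted p = 0.05098, 0.000746 with the block). Total RNA and footprints of Txk differed by -1.06 ± 0.36 SE and -1.30 ± 0.42 SE (limma adjusted p = 0.0927 and 0.0726, with the block 4.61e-05 and 0.00875). The Src family pair Lck and Fyn differed by -0.54 and -0.48 in 4sU RNA. Fyn footprints were 126 and 144 FPKM at 0 h, 117 and 129.8 at 1 h and 63.2 and 77.7 at 4 h, with 112 and 127 at 0.5 and 2 h. The level at 2 h was near that at 0 h, and both 4 h libraries were lower (-0.93 ± 0.20 SE, limma adjusted p = 0.0225). Lck footprints were at 398 and 340.4 FPKM at 0 h and 234 and 224 at 4 h (-0.68 ± 0.19 SE, limma adjusted p = 0.0512, 0.0147 with the block). Zap70 was called in new RNA at 4 h only with the block (0.47 ± 0.33 SE, limma adjusted p = 0.305, 0.0317 with the block). Ptprc, which encodes CD45, the phosphatase that keeps Lck ready, was at 84.6 and 122 FPKM at 0 h and 56.4 and 78.4 at 4 h (-0.60 ± 0.28 SE, adjusted p = 0.145, 0.00927 with the block), and its footprints at 486 and 565 FPKM at 0 h and 525 and 668 at 4 h.

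The adaptors and effectors held the single member called higher in every kind of library without the block, Lcp2, which encodes SLP-76, the scaffold that joins phospholipase C to LAT. In 4sU RNA it stood at 98.3 and 64.05 FPKM at 0 h, 184 and 91.5 at 1 h and 211 and 183 at 4 h, with 349 at 2 h and 253 at 3 h (1.30 ± 0.40 SE, limma adjusted p = 0.0494, 0.0501 at a pseudocount of 0.1). Total RNA went from 53.6 and 42.8 FPKM to 159 and 154 at 4 h (1.69 ± 0.24 SE, adjusted p = 0.0119), and footprints from 161 and 132 over 224 and 146 at 1 h to 417 and 516 FPKM (1.66 ± 0.28 SE, adjusted p = 0.0127). In each kind both 4 h libraries lay above both 0 h libraries, and in replicate 1 the 2 h library was the highest, at 188 FPKM in total RNA and 583 in RP. Plcg1, the enzyme that SLP-76 helps recruit, went the other way. Its 4sU RNA was at 82.95 and 67.1 FPKM at 0 h, 82.6 and 74.4 at 1 h, 57.2 and 40.3 at 2 and 3 h, and 34.6 and 45.2 at 4 h (-0.90 ± 0.21 SE, limma adjusted p = 0.0232). The 1 h libraries were level with those at 0 h, and the 4 h libraries were lower. Its footprints fell from 50.8 and 49.5 FPKM to 20.7 and 29.1 at 4 h (-1.002 ± 0.21 SE, adjusted p = 0.0219).

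The Nck adaptors, which link the receptor to actin, differed alike in direction. Nck2 fell in 4sU RNA from 30.4 and 28.3 FPKM to 20.3 and 14.96 at 4 h (-0.72 ± 0.20 SE, limma adjusted p = 0.0368, 0.1004 with median-of-ratios scaling). Nck1 was at 14.5 and 19.04 FPKM at 0 h and 7.77 and 12.5 at 4 h (-0.70 ± 0.26 SE, adjusted p = 0.0833, 0.005099 with the block). Rasgrp1, the diacylglycerol-driven activator of Ras, was higher at 4 h in both replicates of every kind, by 0.62, 0.80 and 0.60 in 4sU RNA, total RNA and RP, without passing (adjusted p in limma 0.184, 0.0966 and 0.126, with the block 0.001902 in total RNA). Lat, the membrane scaffold, differed by 0.35, 0.41 and 0.54, and the exchange factor Vav1 by 0.40, 0.43 and 0.38, all positive. Neither was called without the block, and Lat was called in RP with it (limma adjusted p = 0.321, 0.0456 with the block). Grap2, the adaptor Gads that binds SLP-76 to LAT, differed by -0.57, -0.50 and -0.42 (called in 4sU RNA with the block, adjusted p = 0.0139). The adaptor Grb2, the Ras exchange factor Sos1, the actin regulator Was and the T cell scaffold Themis lay between -0.11 and 0.03 in 4sU RNA. For Rasgrp1 and Vav1 the difference was larger in replicate 2 than in replicate 1 in each kind, Rasgrp1 going from 76.5 to 166 FPKM in 4sU RNA of replicate 2 and from 83.8 to 92.1 in replicate 1.

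In the NF-kB branch no gene was called at 4 h in any kind without the block. Prkcq, the kinase at the head of the branch, was at 126 and 91.4 FPKM at 0 h, 94.9 and 74.1 at 1 h and 95.3 and 76.6 at 4 h in 4sU RNA, with 88.6 and 95.7 at 2 and 3 h in replicate 1 (-0.33 ± 0.26 SE, limma adjusted p = 0.357). Bcl10, which assembles with Malt1 into the signalling filament, was at 24.04 and 20.4 FPKM at 0 h, 44.8 and 29.3 at 1 h and 26.1 and 26.8 at 4 h. Both 1 h libraries of Bcl10 were above all 4 libraries at 0 and 4 h. In total RNA Bcl10 was at 8.51 and 4.74 FPKM at 0 h and 13.4 and 10.7 at 4 h (0.82 ± 0.30 SE, limma adjusted p = 0.112, 0.00157 with the block), and in RP at 79.8 and 64.6 FPKM at 0 h and 112 and 91.7 at 4 h (adjusted p = 0.242, 0.0458 with the block). Malt1, a protease and scaffold, had footprints at 115 and 71.4 FPKM at 0 h and 138 and 144 at 4 h (0.63 ± 0.31 SE, adjusted p = 0.181, 0.0455 with the block), and its 4sU RNA was lower in replicate 1 and higher in replicate 2 (-0.05).

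In the calcium branch, new RNA of the sensor Stim1 fell, while that of the channel Orai1, called with the block only, was higher at 4 h in both replicates. Stim1 (chr7:102267806-102437319) stood in 4sU RNA at 67.3 and 50.1 FPKM at 0 h, 35.9 and 36.9 at 1 h, 31.6 and 21.7 at 2 and 3 h, and 15.01 and 16.2 at 4 h (-1.83 ± 0.19 SE, limma adjusted p = 0.00296). The groups at 0, 1 and 4 h did not overlap. Footprints went from 62.5 and 47.5 over 42.2 and 35.8 to 23.1 and 24.8 FPKM (-1.15 ± 0.20 SE, adjusted p = 0.0141), and total RNA from 37.3 and 25.9 FPKM to 12.8 and 16.7 at 4 h (-1.04 ± 0.27 SE, adjusted p = 0.0506, 7.59e-05 with the block). Its paralogue Stim2 was at 26.9 and 37.6 FPKM at 0 h and 10.6 and 20.2 at 4 h in 4sU RNA (-1.07 ± 0.33 SE, adjusted p = 0.0502, 0.00115 with the block). Orai1, the pore of the channel that Stim1 opens, was at 44.97 and 24.9 FPKM at 0 h, 91.8 and 55.6 at 1 h, 148 and 98.02 at 2 and 3 h, and 78.6 and 60.8 at 4 h. Every later library lay above the 0 h library of its replicate (1.02 ± 0.37 SE, limma adjusted p = 0.0748, 0.00128 with the block). Footprints of Orai1 were at 81.3 and 63.03 FPKM at 0 h and 111 and 154 at 4 h (0.86 ± 0.28 SE, adjusted p = 0.07503, 0.0292 with the block).

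Among the NFAT factors, Nfatc3 fell in every kind of library, and Nfatc1 and Nfatc2 were called with the block only. Nfatc3 (chr8:106058840-106130537) was at 79.8 and 67.5 FPKM at 0 h, 54.5 and 59.3 at 1 h, 30.5 and 29.6 at 2 and 3 h, and 27.4 and 30.8 at 4 h in 4sU RNA (-1.31 ± 0.18 SE, limma adjusted p = 0.00464). In total RNA it went from 44.96 and 43.2 FPKM to 20.3 and 17.2 at 4 h (-1.19 ± 0.23 SE, adjusted p = 0.0212) and in RP from 76.9 and 52.8 over 52.4 and 41.2 to 25.9 and 21.6 (-1.39 ± 0.25 SE, adjusted p = 0.0148). In replicate 1 the libraries from 2 h on were close to each other in 4sU RNA, and in all 3 kinds both 4 h libraries lay below both 0 h libraries. Nfatc1 was at 25.2 and 30.4 FPKM at 0 h and 18.4 and 32.2 at 4 h in 4sU RNA, 12.02 and 13.1 at 0 h and 6.48 and 10.8 at 4 h in total RNA, and 55.9 and 67.4 at 0 h and 70.9 and 79.6 at 4 h in RP. It was lower in the pool and higher on ribosomes in both replicates (-0.53 ± 0.28 SE and 0.29 ± 0.21 SE, limma adjusted p = 0.236 and 0.346, and 0.04701 and 0.141 with the block). Nfatc2 differed by 0.16 in 4sU RNA, -0.62 in total RNA (called with the block, adjusted p = 0.01697) and 0.05 in RP. The calcineurin catalytic genes Ppp3ca and Ppp3cb differed in 4sU RNA by -0.50 ± 0.23 SE and -0.49 ± 0.18 SE and the regulatory subunit Ppp3r1 by -0.23 ± 0.16 SE, and of these Ppp3cb was called with the block (limma adjusted p = 0.0818, 0.0288 with the block).

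Among the 13 negative regulators 3 fell in 4sU RNA (18.9% of all genes), 1 in total RNA (7.02%) and 3 in RP (12.9%). None was called higher without the block, and with it Dok2 was in 4sU RNA and Cblb in RP. Dgka, which removes diacylglycerol and so limits Ras activation, had the largest fall of all 48 genes in 4sU RNA. It stood at 238 and 252 FPKM at 0 h, 145 and 189 at 1 h, 86.7 and 55.2 at 2 and 3 h, and 42.3 and 89.4 at 4 h (-1.97 ± 0.37 SE, limma adjusted p = 0.0116). Total RNA went from 204 and 154 FPKM to 49.8 and 80.3 at 4 h (-1.47 ± 0.32 SE, adjusted p = 0.0286). Footprints were at 299.5 and 206 FPKM at 0 h, 156 and 125 at 1 h and 103 and 138 at 4 h (-1.05 ± 0.28 SE, adjusted p = 0.0412). In each kind the 4 h libraries were below the 0 h libraries, with replicate 1 the lower at 4 h, and in RP the 4 h library of replicate 2 lay above its 1 h library. Dgkz, the other diacylglycerol kinase of the list, fell in RP from 34.3 and 32.03 over 20.6 and 22.3 to 21.04 and 19.2 FPKM, with 22.2 and 25.4 at 0.5 and 2 h (-0.69 ± 0.16 SE, limma adjusted p = 0.0309), and was at 47.4 and 54.1 FPKM at 0 h and 41.5 and 29.6 at 4 h in 4sU RNA (-0.52 ± 0.24 SE, adjusted p = 0.146).

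Ptpn22, a phosphatase that acts with the kinase Csk against Lck, was at 47.2 and 49.9 FPKM at 0 h, 67.5 and 54.2 at 1 h, 77.95 and 40.2 at 2 and 3 h, and 27.3 and 30.1 at 4 h in 4sU RNA. Both 1 h libraries were above the 0 h libraries and both 4 h libraries below them (-0.74 ± 0.18 SE, limma adjusted p = 0.0261, 0.0552 with median-of-ratios scaling). Footprints of Ptpn22 went from 73.8 and 72.2 over 63.7 and 68.5 at 1 h to 47.7 and 49.3 FPKM (-0.58 ± 0.16 SE, adjusted p = 0.0476, 0.0728 with that scaling). Csk itself was at 87.0 and 71.03 FPKM at 0 h and 120.2 and 89.4 at 4 h in 4sU RNA (0.39 ± 0.25 SE, adjusted p = 0.266). The paralogues Ubash3a and Ubash3b, suppressors of Zap70 signalling, stood at different levels. Ubash3b fell in 4sU RNA from 7.87 and 7.10 at 0 h over 6.13 and 6.09 at 1 h to 3.37 and 3.34 FPKM at 4 h, with 6.93 and 6.29 at 2 and 3 h (-0.96 ± 0.17 SE, limma adjusted p = 0.00888). Ubash3a was at 118 and 123 FPKM at 0 h and 95.7 and 126 at 4 h (-0.13 ± 0.22 SE, adjusted p = 0.681), and the difference between the pair was not tested. Sit1, a transmembrane adaptor that recruits inhibitors, was at 66.4 and 47.3 FPKM at 0 h, 81.99 and 47.95 at 1 h, 77.2 and 30.6 at 2 and 3 h, and 33.4 and 23.9 at 4 h (-0.96 ± 0.33 SE, limma adjusted p = 0.0651, 0.000959 with the block). The libraries up to 2 h lay above those at 3 and 4 h.

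The ubiquitin ligases Cbl and Cblb, which mark active receptors for removal, differed in 4sU RNA by -0.42 ± 0.37 SE and 0.37 ± 0.48 SE. Cblb was higher at 4 h in both replicates of each kind and was called with the block in RP (0.54 ± 0.33 SE, limma adjusted p = 0.2703, 0.0277 with the block). The docking proteins Dok1 and Dok2 differed by 0.16 ± 0.25 SE and 0.54 ± 0.38 SE, the latter called with the block (limma adjusted p = 0.304, 0.0166 with the block). Ptpn6, which encodes the phosphatase SHP-1, differed by 0.30 ± 0.22 SE, and Sla, an adaptor that targets the receptor for degradation, by -0.41 ± 0.39 SE. The median of the negative regulators at 4 h was -0.41 in 4sU RNA, -0.09 in total RNA and 0.16 in RP. The receptor genes had -0.82, -0.25 and -0.39, the proximal kinases -0.54, -0.52 and -0.68, the calcium branch -0.49, -0.62 and -0.11, the adaptors -0.05, -0.14 and 0.05, and the NF-kB branch -0.05, 0.38 and 0.49. With median-of-ratios scaling the 4sU medians of the adaptors and of the NF-kB branch became 0.11 and 0.12, the total RNA median of the negative regulators became 0.02, and the other medians kept their sign. No test compared the groups.

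At 1 h, new RNA of Zap70 and Orai1 had the largest positive differences and that of Cd3g the largest negative one, and no member passed without the block. In 4sU RNA 0 of 48 were called at 1 h against 0 h, against 0.183% of 9278 genes. An unadjusted p below 0.05 in limma was reached by 7 members, beside 1236 of the 9278 genes. With the block there were 5 calls, Zap70, Orai1 and Bcl10 higher and Cd3g and Stim1 lower, against 10.6% of genes (5.21% higher and 5.42% lower). Zap70 was at 59.8 and 41.5 FPKM at 0 h and 141 and 83.8 at 1 h (1.11 ± 0.33 SE, limma adjusted p = 0.261, 0.00903 with the block). Orai1 differed by 1.07 ± 0.37 SE (adjusted p = 0.302, 0.0124 with the block in limma) and Bcl10 by 0.69 ± 0.23 SE (adjusted p = 0.301, 0.0452 with the block). Cd3g differed by -0.81 ± 0.20 SE (limma, adjusted p = 0.222, 0.0240 with the block) and Stim1 by -0.66 ± 0.19 SE (adjusted p = 0.255, 0.0440 with the block). In RP 0 members were called at 1 h with or without the block, against 0.14% of 9312 genes (1.97% with the block). The 3 members with an unadjusted p below 0.05 in limma were Dgka (-0.83), Nck1 (-0.80) and Dgkz (-0.61), beside 991 of the 9312 genes.

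Between 1 and 4 h, 8 members fell in 4sU RNA and none rose, against 26.7% of genes called and 14.7% called lower. They were Dgka (-1.41), Stim1 (-1.17), Sit1 (-1.12), Ptpn22 (-1.05), Cd28 (-0.98), Plcg1 (-0.97), Nfatc3 (-0.94) and Ubash3b (-0.71), with limma adjusted p from 0.0107 (Stim1) to 0.0498 (Sit1). The block gave 23 calls, 5 higher (22.0% of genes) and 18 lower (32.2%), against 54.1%, and added Csk, Dok2, Rasgrp1, Themis and Vav1 on the higher side and Cd3d, Cd3e, Fyn, Grap2, Lck, Ptprc, Sla, Stim2, Txk and Zap70 on the lower side. Without 4sU 1 h replicate 1 the count was 1 (Stim1), without 1 h replicate 2 it was 1 (Ptpn22), without 4 h replicate 1 it was 0 and without 4 h replicate 2 it was 10, where 1069, 579, 825 and 2455 genes were called against 2473. The call of Sit1 was lost at pseudocounts of 0.1 and 5, without a filter and with median-of-ratios scaling (limma adjusted p from 0.0503 to 0.0808). In RP Lcp2 rose (1.35 ± 0.28 SE, limma adjusted p = 0.0325) and Fyn fell (-0.81 ± 0.20 SE, adjusted p = 0.0482) between 1 and 4 h, 2 calls against 14.1% of genes (7.65% higher and 6.42% lower). The block gave 20 calls, 9 higher (17.5% of genes) and 11 lower (19.3%), against 36.7%. It added Cblb, Csk, Dok1, Malt1, Nfatc1, Rasgrp1, Sos1 and Themis, higher, and Cd28, Lck, Nfatc3, Plcg1, Ptpn22, Sit1, Stim1, Stim2, Txk and Ubash3b, lower, and without any 1 of the 4 libraries at 1 and 4 h none was called, with 0 to 35 genes called in these fits against 1310.

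The libraries at 2 h, 1 of each kind and all of replicate 1, held the highest value of many members. Within replicate 1, 19 of 48 members (39.6%) had their highest 4sU value at 2 h, beside 11.3% of all genes, and 20 had it at 0 h, beside 35.1%. In RP 19 members (39.6%) were highest at 2 h, beside 19.2% of genes, and in total RNA 22 (45.8%) were, beside 21.3%, with 0, 2 and 4 h as the times of replicate 1. Bcl10, Cd247, Fyn, Lck, Lcp2, Malt1, Nfatc1, Orai1, Ptpn22, Ptpn6, Sla, Vav1 and Zap70 were highest at 2 h in all 3 kinds. These include the kinases Lck, Fyn and Zap70 as well as the inhibitors Ptpn6, Ptpn22 and Sla. Of the genes highest at 0 h in 4sU RNA, Cd28, Cd3d, Cd3g, Dgka, Grap2, Nck1, Nfatc3, Plcg1, Ppp3ca, Prkcq, Stim1 and Txk were highest at 0 h in the other kinds too. The share of all genes highest at the same time in all 3 kinds was not counted, for 2 h or for 0 h. Agreement between the kinds is therefore not shown to be particular to the members.

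**Figure D3:**
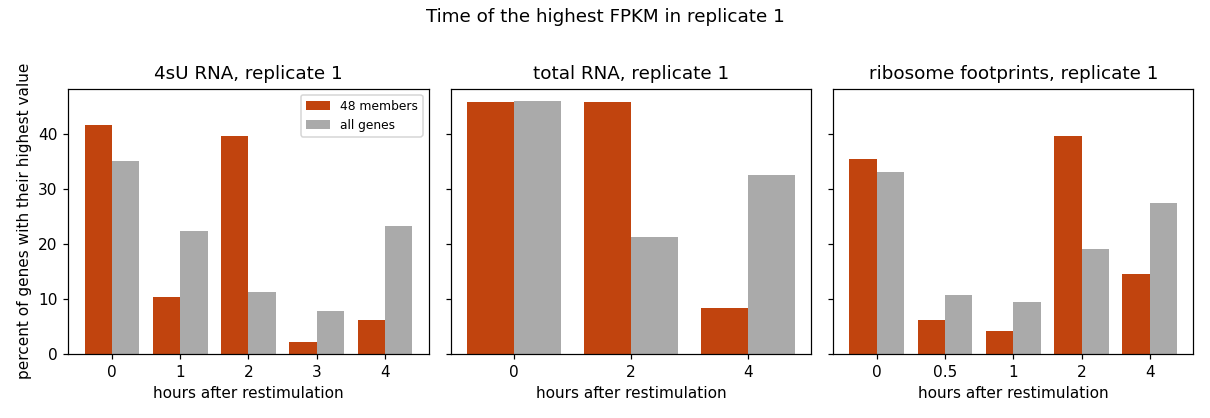
Percent of genes whose highest FPKM in replicate 1 fell at each time, for the 48 genes and for all genes with a mean of at least 1 FPKM, in 4sU RNA, total RNA and ribosome footprints. At 2 h the bars of the 48 genes stand at 39.6%, 45.8% and 39.6% (19, 22 and 19 genes), above those of all genes at 11.3%, 21.3% and 19.2%.

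Against 0 h of the same replicate, 6 members were at least 2-fold higher in 4sU RNA at 2 h (7.87% of genes) and 3 at least 2-fold lower (7.97%), on the log2(FPKM + 1) scale, with no replicate check. The higher ones were Lcp2 (1.82 on the log2 scale), Orai1 (1.70), Zap70 (1.38), Ptpn6 (1.38), Sla (1.17) and Bcl10 (1.11). The lower ones were Dgka (-1.45), Nfatc3 (-1.36) and Stim1 (-1.07). In total RNA Lcp2, Sla, Orai1, Bcl10 and Ptpn6 were at least 2-fold higher (5 members, 4.34% of genes) and none was lower (2.42%). In RP Lcp2 (1.85), Orai1 (1.61), Sla (1.60) and Nfatc1 (1.401) were higher (4 members, 7.76% of genes) and Nfatc3, Txk and Nck1 lower (3 members, 8.53%). Sla was at 78.8 and 156 FPKM at 0 h, 146 and 152 at 1 h, 178 at 2 h, 100.2 at 3 h and 65.5 and 106 at 4 h in 4sU RNA. The 2 h library was the highest, followed by replicate 2 at 0 and 1 h. Ptpn6 was at 68.2 and 77.8 FPKM at 0 h, 117 and 116 at 1 h and 178 at 2 h. The summed CD8 T and NK cell markers were at 172 FPKM at 0 h and 171 at 2 h in these 4sU libraries. Within that sum Cd8a, Gzma and Eomes were higher at 2 h, and Cd8b1, Klrd1 and Klrk1 were lower. The B cell markers were at 17.3 and 6.72, and the part of other cells was not tested.

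**Figure D4:**
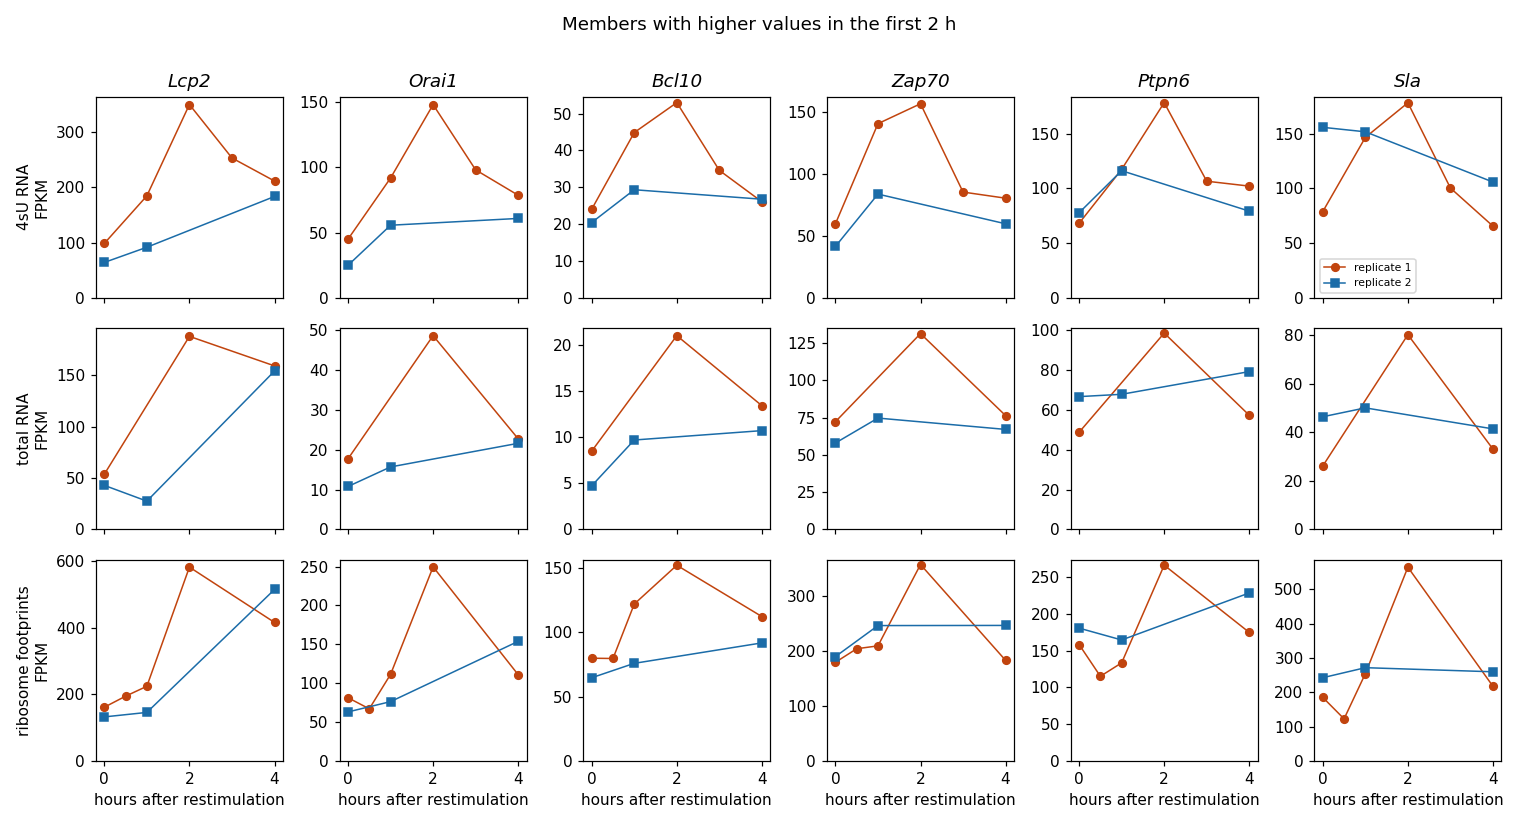
FPKM by hours after restimulation for Lcp2, Orai1, Bcl10, Zap70, Ptpn6 and Sla (columns), which were at least 2-fold higher in the 2 h 4sU library of replicate 1, in 4sU RNA, total RNA and ribosome footprints (lines of panels). Points are single libraries, with replicates 1 and 2 joined separately; replicate 1 peaks at 2 h in every panel, and replicate 2 has no 2 h library here.

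In the libraries with 0.5 h of labelling no member was 2-fold higher or lower at 0.5 h than at 0 h, beside 0.694% and 0.253% of genes. Each time was 1 library, and the comparison has no test. The largest positive differences were those of Sit1 (0.56), Bcl10 (0.52) and Lcp2 (0.45), and the largest negative ones those of Vav1 (-0.66) and Lck (-0.66). Bcl10 was at 18.3 and 26.7 FPKM, and Lcp2 at 82.6 and 113 FPKM. Cd3g was at 167 and 117 FPKM (-0.51), while Cd3d and Cd3e differed by -0.04 and -0.03.

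Whether footprints or new RNA changed by another amount than the RNA pool was tested as an interaction. For RP minus total RNA at 4 h, 0 members and 0 genes were called by limma (0.0% of 9021 genes, 241 at an unadjusted p below 0.05), and with the block 0 members and 3 genes (0.0333%). Differences of the members ran from -0.37 (Ubash3b) to 0.81 (Nfatc1), and Nfatc1 (0.81 ± 0.35 SE) and Ppp3cb (0.53 ± 0.23 SE) had an unadjusted p below 0.05. For 4sU minus total RNA, 0 members and 0 genes were called (0.0% of 9033 genes, 526 at an unadjusted p below 0.05), and with the block 0 members and 122 genes (1.35%). The members with an unadjusted p below 0.05 were Cd3g (-0.81 ± 0.33 SE), Stim1 (-0.79 ± 0.33 SE), Ubash3b (-0.60 ± 0.22 SE), Ppp3r1 (-0.57 ± 0.23 SE) and Nfatc2 (0.78 ± 0.31 SE). None of these 5 passed after adjustment over all genes.

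Before restimulation the members spanned a wide range of levels. In 4sU RNA at 0 h Cd28 (307 ± 17.4), Dgka (245 ± 9.67) and Cd3d (186 ± 8.79) had the highest means of the 48, as mean FPKM ± SD of 2 libraries. Sos1 (4.28 ± 0.799) and Ubash3b (7.48 ± 0.544) had the lowest. The range of 1 SD about the mean of Cd3d overlapped those of Lck (173 ± 35.1) and Malt1 (154 ± 50.1). That of Ubash3b overlapped that of Ppp3ca (9.94 ± 2.28). In total RNA the order began with Cd3g (324 ± 43.6), Cd3d (286 ± 97.5) and Lck (202 ± 26.6) and ended with Sos1 (2.05 ± 0.467). In RP, where FPKM steps fitted the coding length, it began with Cd3d (2040.5 ± 205), Cd3g (1338 ± 226), Cd28 (1200.3 ± 235) and Cd3e (1038 ± 138), and the ranges of 1 SD about the means of Cd3g, Cd28 and Cd3e overlapped. In total RNA those of Cd3g and Cd3d overlapped, as did those of Cd3d and Lck. Cd28 was above 99.2% of all genes in 4sU RNA and Sos1 above 18.3%. Levels were set against each other only within a kind of library.

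The members that were never called in any of the 9 comparisons, with or without the block, were Cbl, Cd247, Grb2, Ppp3ca, Ppp3r1, Prkcq, Ptpn6, Ubash3a and Was. Their differences at 4 h ran from -0.50 to 0.30 in 4sU RNA, from -0.45 to 0.34 in total RNA and from -0.41 to 0.39 in RP. Not passing does not show that they were constant, as the 2 h values of Ptpn6 and Cd247 (109 FPKM in 4sU RNA) lay above both 0 h libraries. Without the block, 15 members were called in at least 1 of the 9 comparisons and 33 in none. Over all genes the matching shares for the 9 comparisons, with or without the block, were not counted. These counts therefore do not show whether members were called more or less often than other genes.

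Of 78 other genes of the pathway, a list drawn up with earlier results of these data known, 77 were in the table. In 4sU RNA at 4 h 3 rose and 17 fell, beside 14.4% and 18.9% of all genes, and with the block 10 and 30, beside 23.3% and 35.4%. Among the genes that rose were the GTPase Hras (0.88 ± 0.24 SE) and the kinase Akt1 (0.70 ± 0.17 SE). The largest falls were those of Rasa3 (-3.39 ± 0.22 SE), which switches off Ras and Rap GTPases, the channel subunit Orai2 (-1.93 ± 0.19 SE) and the docking adaptor Gab3 (-1.67 ± 0.26 SE). The limma adjusted p of these genes ran from 0.00164 (Rasa3) to 0.0363 (Hras). In total RNA 1 rose and 6 fell (6.47% and 7.02% of all genes), with the block 7 and 19 (16.6% and 23.3%). In RP 5 rose and 14 fell (12.1% and 12.9%), with the block 10 and 27 (21.3% and 26.7%). The median in 4sU RNA was -0.31, beside -0.16 over all genes.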

How the data were processed

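The authors deposited 1 table of FPKM for 9420 genes and 24 libraries. The submitters' processing notes name GRCm38 as the build and featureCounts (Subread 1.4.6-p3) as the counter. Not given in the sources used here are the aligner, the annotation, gene lengths, the strand setting and how genes were selected. Low FPKM values matched whole reads (within 0.1 read, for at least 80% of them) over coding length in 7 RP libraries and over exon length in 1 total RNA and 1 4sU library, which gave their depths. These depths cover counting only, and reads carry no molecular identifiers.

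The 48 genes, the roles and the other lists were chosen with earlier results of these data known. Identifiers were matched to symbols for 9412 genes. Each kind of library was fitted alone on log2(FPKM + 1) with limma 3.58.1 (R 4.3.3, trend), all times together, over genes with a mean of at least 1 FPKM. Adjustment was Benjamini-Hochberg over all genes tested. The fits left 3 residual degrees of freedom in 4sU RNA and in RP, 2 in total RNA and 5 in an interaction. On simulated data the script recovered large planted changes. The simulated noise was independent between libraries and held no replicate effect. The simulation therefore checked the code, and not the power or the error rate in these data. Times with 1 library have no test.

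Replicate numbers were tested as pairs: deviations from group means correlated above 0.1 in 28 of 28 same-numbered pairs (0.307 to 0.790), so the numbers pair the libraries by the data, not by a label. The fit with this block stands beside a result where it changes the call. Named by rule were members called in any comparison, the largest 4sU difference of each role and paralogue pairs, up to 3 called other pathway genes in each direction, and further examples chosen after their values were seen. Of the other pathway genes, the values of 1 that this rule names are not reported here.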

Additional observations from a re-analysis of the deposited data

How the results depend on the processing

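Calls depended most on the replicate block and on single libraries at the replicated times. With the replicate block, which pairs libraries by number, the members called numbered 5 in 4sU RNA at 1 h, 23 at 4 h and 23 between 1 and 4 h, 19 in total RNA at 4 h, and in RP 21 at 4 h and 20 between 1 and 4 h. It took away none of the calls made without it, and the interactions and RP at 1 h stayed at 0 calls. Leaving out 1 library at a time gave 0 to 0 calls in 4sU RNA at 1 h, 2 to 14 at 4 h and 0 to 10 between 1 and 4 h. The counts were 0 to 2 in total RNA, 0 to 0, 0 to 3 and 0 to 0 in RP at 1 h, at 4 h and between 1 and 4 h, and 0 to 0 in both interactions. A pseudocount of 5 added calls of Stim2 and Txk in 4sU RNA at 4 h, and a mean of at least 5 FPKM added Stim2 there and Stim1 in total RNA. Such fits with a library left out assume that the library left alone varies like the other groups. Of 1109 alternative values for single members, 913 kept their direction and their side of the threshold, 107 lost the call, 89 gained it and no called member turned its sign. With 2 libraries a group and the depth of most libraries unknown, the reads behind low FPKM values, such as those of Sos1 and Ubash3b, are mostly unknown. Whether a low FPKM goes with a large SE was not tested. At 4 h in 4sU RNA, replicates 1 and 2 stood at 3.37 and 3.34 FPKM for Ubash3b. For Sos1 they stood at 2.43 and 5.92 FPKM. In 4sU RNA at 4 h against 0 h the SE of Ubash3b was smaller than that of Cblb, a gene with higher FPKM.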

Other observations

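The replicate numbers differed in the level of several members at every time. Cd3g, Cd247, Lck, Lat, Nck2, Csk and Sit1 were higher in replicate 1 in all 8 replicated groups, across 4sU RNA, total RNA and RP. Txk, Ptprc, Themis, Nfatc1, Stim2, Cblb and Sla were higher in replicate 2 in all 8. By role, those higher in replicate 1 mix receptor chains, a kinase, adaptors and negative regulators. Those higher in replicate 2 mix a kinase, CD45, an adaptor, calcium branch genes and negative regulators, with no receptor chain. The share of all genes with such a split was not counted. Over all genes the replicate deviations correlated between groups (0.307 to 0.790), so the split is not shown to be particular to these genes. For Sla, 4sU RNA at 0 h was at 78.8 FPKM in replicate 1 and 156 in replicate 2, beside a difference between 2 and 0 h of 1.17 on the log2 scale within replicate 1. Cd247 stood at 75.9 FPKM and 62.4 FPKM in the same libraries.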
